A study of Mus musculus with 4 samples.

Results

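The genes described here are 34 mouse genes whose products supply a working muscle fibre with ATP. They comprise 12 glycolytic enzymes, 6 genes that regulate or branch off glycolysis, 5 genes that handle lactate and pyruvate, 7 genes of glycogen storage and breakdown, and 4 genes of the phosphocreatine and adenine nucleotide systems. They were chosen by name from the known roles of their products, and they are 34 of the 21938 protein-coding gene records of GENCODE release M21. All of them lie on autosomes. A peak was assigned to a gene when it overlapped the gene body, from annotated start to annotated end on mm10, by at least 1 bp.

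Phosphorylation of serine 10 of histone 3 (H3S10ph) was mapped by ChIP-seq, in which DNA wrapped on the modified histone is precipitated with an antibody and sequenced. The tissue was gastrocnemius, the large calf muscle, of 5 month old male C57BL/6 mice. Stimulated muscles were driven through their nerve, under anaesthesia, to perform 50 eccentric contractions, which are contractions during which the muscle is lengthened, and were taken immediately afterwards. Unstimulated muscles were the contralateral muscles, so both conditions shared the anaesthesia. Stimulation was through wires placed at the sciatic nerve by surgery, with the common peroneal nerve cut, so the contractions and what the stimulation required of the leg cannot be told apart. There were 2 samples per condition, each a pool of muscles from 6 mice, and the whole muscle was used, so a peak does not say which of its nuclei carried the mark. The data are 1 list of broad peaks per sample, without read counts, so the depth of each sample is unknown, and no tissue marker could be checked from them.

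In a muscle fibre that contracts hard, phosphocreatine refills ATP first, through creatine kinase, and adenylate kinase draws further ATP from ADP. Glycogen is then split by glycogen phosphorylase, which phosphorylase kinase switches on, and the glucose phosphates released pass down glycolysis to pyruvate. In fast fibres, which make up much of the gastrocnemius, a large part of the pyruvate leaves as lactate through monocarboxylate transporters. H3S10ph is best known from condensed mitotic chromosomes, but in resting cells it also appears within minutes at immediate early genes when MAP kinase signalling is switched on.

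The 4 lists differed in length more between replicates than between conditions. They held 9094 and 32740 peaks in unstimulated replicates 1 and 2, and 10901 and 40683 peaks in stimulated replicates 1 and 2. Unstimulated replicate 1 stood apart from the other lists in its sex chromosomes. It held 522 peaks on chromosome X and 0 on chromosome Y, against 16 to 19 on chromosome X and 6 or 7 on chromosome Y in the other 3 lists. All mice are labelled male, so the sex chromosome peaks of this list set it apart from the other lists of the same label, and why was not tested. No energy gene lies on these chromosomes, and the ratios between the conditions are also given without this list.

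Whether the energy genes carried more H3S10ph after eccentric contractions was asked first of the gene bodies as a set. Peaks lay on 5 and 16 of the 34 genes in the unstimulated lists and on 7 and 26 in the stimulated lists. Stimulated replicate 2 had by far the highest count, and stimulated replicate 1 lay between the unstimulated lists, so the conditions overlapped. On average 10.5 ± 7.78 genes (SD, n = 2) were marked in unstimulated muscles and 16.5 ± 13.4 genes (SD, n = 2) in stimulated ones, so the ratio was 1.57. An exact two-sided permutation test over the 4 lists returned p = 0.667. With 2 samples against 2 it cannot go below 0.333, so no comparison of the conditions here can pass 0.05. The ratio rested on single lists. It was 1.03 without unstimulated replicate 1, 3.30 without unstimulated replicate 2, 2.48 without stimulated replicate 1 and 0.667 without stimulated replicate 2.

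In the same lists, a peak lay on 11.9%, 31.2%, 16.0% and 42.3% of all protein-coding genes, in the order unstimulated replicates 1 and 2 and stimulated replicates 1 and 2. The energy genes stood at 14.7%, 47.1%, 20.6% and 76.5%. Since longer genes are hit more often, each energy gene was also set beside the protein-coding genes of its length, divided into 20 classes of equal size. At the shares of those classes, 3.91 and 10.9 energy genes would have held a peak in the unstimulated lists and 5.48 and 15.2 in the stimulated lists. The observed count was thus above that of genes of like length in each list, by 1.28 and 1.46 times in unstimulated and 1.28 and 1.71 times in stimulated muscles. This ratio averaged 1.37 ± 0.130 (SD, n = 2) without and 1.49 ± 0.304 (SD, n = 2) with contractions, with an exact permutation p of 1. In the lists numbered 1 the counts were near the background, at 5 against 3.91 and 7 against 5.48 genes, and the conditions differed in this ratio by less than the replicates of a condition did.

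Among the 13 energy genes under 15 kb, 0 and 2 held a peak in the unstimulated lists and 3 and 8 in the stimulated lists. Of all protein-coding genes of that length, 1.60%, 8.76%, 3.65% and 17.4% held one. Among the 13 energy genes of 15 to 40 kb the counts were 0, 7, 1 and 10, beside 8.07%, 30.1%, 13.01% and 46.3% of all genes of that length. Among the 8 longer ones they were 5, 7, 3 and 8, beside 32.7%, 69.3%, 39.4% and 79.7%. In stimulated replicate 1 the energy genes of both longer classes, at 7.69% and 37.5%, were therefore not above the background. All 5 genes marked in unstimulated replicate 1 were thus long genes, with a median length of 82.6 kb against 18.1 kb for the other 29. In stimulated replicate 1 the short genes *Slc16a3*, *Pdk4* and *Ak1* made up 3 of the 7 marked genes.

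The bases covered by peaks followed the same order of lists. Peaks covered 4788 and 15417 bp of the 34 gene bodies in the unstimulated lists and 5769 and 36343 bp in the stimulated lists. This was 0.368%, 1.18%, 0.443% and 2.79% of their length, against 0.202%, 0.739%, 0.257% and 1.29% over all protein-coding genes. On average 10102 ± 7516 bp (SD, n = 2) were covered in unstimulated muscles and 21056 ± 21619 bp (SD, n = 2) in stimulated ones, which gave a ratio of 2.08 with an exact permutation p of 0.667. Without 1 list the ratio was 1.37 (unstimulated replicate 1), 4.40 (unstimulated replicate 2), 3.60 (stimulated replicate 1) or 0.571 (stimulated replicate 2).

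**Figure D1:**
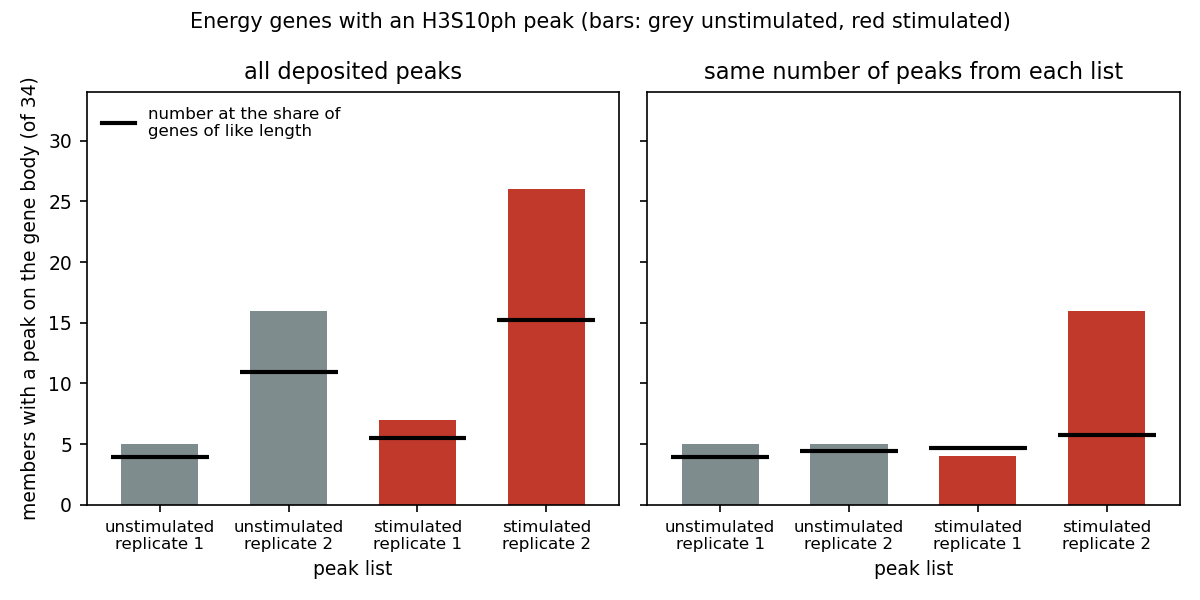
Number of the 34 energy genes with a peak on the gene body (y axis) in each list (x axis), with all deposited peaks on the left and with 9094 peaks from each list on the right. Grey bars are unstimulated lists, red bars stimulated lists, and the black lines give the number at the share of protein-coding genes of like length. With all peaks every bar passes its line, from 5 to 26 genes, and with equal lists the bar of stimulated replicate 2 stands far above its line, 16 against 5.72.

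The lists were then cut to the same number of peaks, the 9094 with the highest −log10 p of each, which is the length of the shortest. Energy genes with a peak numbered 5 and 5 in the unstimulated lists and 4 and 16 in the stimulated lists. At the shares of genes of like length the numbers would be 3.91, 4.43, 4.72 and 5.72, and 11.9%, 13.1%, 13.8% and 17.0% of all protein-coding genes held a peak. With lists of equal number, stimulated replicate 2 thus kept the highest count, and the other 3 lists were near the background, stimulated replicate 1 just under it. The 16 genes of stimulated replicate 2 were *Hk1*, *Hk2*, *Gpi1*, *Pygm*, *Phkb*, *Phkg1*, *Gys1*, *Gbe1*, *Ugp2*, *Pfkfb2*, *Pfkfb3*, *Pfkfb4*, *Slc16a1*, *Pdk4*, *Fbp2* and *Gpd1*. The 4 genes of stimulated replicate 1 were *Gbe1*, *Ugp2*, *Ckm* and *Pdk4*.

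The median GC content of the bodies of the energy genes was 48.8%, against 45.2% over all protein-coding genes. Of the 6 genes marked in 3 or 4 lists, *Gbe1*, *Ugp2*, *Phkb*, *Pdk4* and *Pfkfb2* lay below the latter, at 38.6% to 43.1%, and *Pfkfb3* above it, at 47.3%. Peaks on energy genes had median GC contents of 40.0%, 48.6%, 51.3% and 48.1% in the 4 lists, against 38.7%, 44.9%, 45.7% and 45.4% for peaks on any protein-coding gene. When genes were grouped by length and GC content together, in 10 by 5 classes, the counts of 5, 16, 7 and 26 stood against 3.08, 11.3, 5.74 and 16.8. The ratios were then 1.62 and 1.42 in unstimulated and 1.22 and 1.54 in stimulated muscles. The highest was thus that of unstimulated replicate 1, whereas with length alone it was that of stimulated replicate 2. A higher ratio in stimulated muscles therefore did not hold with GC content included. The grouping by length and GC content was added after the data were seen, and what part GC content has in the counts beyond it was not tested.

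At the promoter, taken as the 1000 bp on either side of the 1 annotated start of each gene body, the energy genes were without a peak in both unstimulated lists. Stimulated replicate 1 marked the promoter of *Slc16a3*, and stimulated replicate 2 marked those of *Hk2*, *Aldoa*, *Gapdh*, *Ckmt2*, *Pfkfb3*, *Slc16a1*, *Slc16a3* and *Pdk4*. The counts were thus 0 and 0 against 1 and 8, and the conditions did not overlap. Of all protein-coding genes, 0.392% and 2.53% held a promoter peak in the unstimulated lists and 1.41% and 9.18% in the stimulated lists. Energy genes at the shares of their length would number 0.131, 0.875, 0.440 and 3.24. The exact permutation test gave p = 0.333, its smallest value. Without stimulated replicate 2 the difference of the means fell from 4.5 genes to 1, and without stimulated replicate 1 it was 8. With 9094 peaks from each list the promoter counts were 0, 0, 0 and 2, the last being *Hk2* and *Slc16a1*, beside 0.392%, 0.848%, 1.07% and 2.58% of all genes. The conditions were then no longer apart, nor were they once peaks below a −log10 p of 2.5 were dropped (0, 0, 0 and 1) or with promoters of 5000 bp (1, 3, 3 and 20). With the start of any annotated transcript the counts were 0, 2, 3 and 12, so the unstimulated lists were then not free of marked starts. The 2 of unstimulated replicate 2 were *Ldhb* and *Pfkfb3*, and the share of all genes was not counted for this setting.

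**Figure D2:**
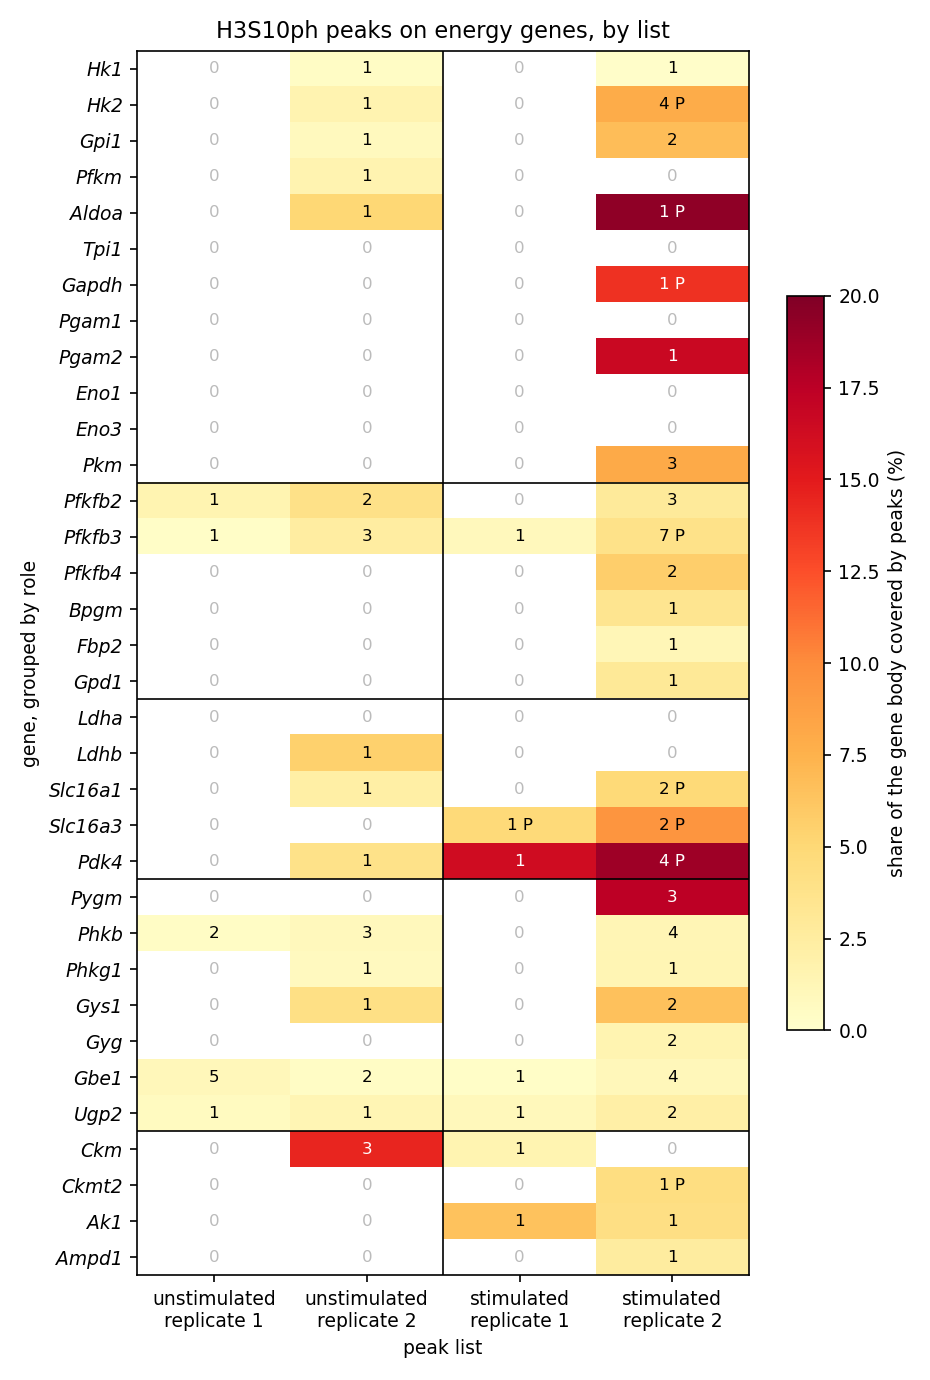
Peaks on each energy gene (rows, grouped by role) in each list (columns). The number is the count of peaks on the gene body, P marks a peak at the promoter, and the colour gives the share of the gene body covered, in percent. The last column, stimulated replicate 2, holds 26 marked genes and 8 promoters, and *Pdk4* is covered over 16.3% and 18.7% of its body in the stimulated lists.

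By the lists in which they held a peak, the 34 genes fell into 9 patterns. *Gbe1*, *Ugp2* and *Pfkfb3* were marked in all 4 lists, *Phkb* and *Pfkfb2* in all but stimulated replicate 1, and *Pdk4* in all but unstimulated replicate 1. *Ak1* and *Slc16a3* were marked in both stimulated lists and in no unstimulated list. *Hk1*, *Hk2*, *Gpi1*, *Aldoa*, *Phkg1*, *Gys1* and *Slc16a1* were marked in replicate 2 of each condition, and *Ckm* in unstimulated replicate 2 and stimulated replicate 1. *Pfkm* and *Ldhb* were marked in unstimulated replicate 2 alone, and 11 genes in stimulated replicate 2 alone, namely *Gapdh*, *Pgam2*, *Pkm*, *Pygm*, *Gyg*, *Ckmt2*, *Ampd1*, *Pfkfb4*, *Bpgm*, *Fbp2* and *Gpd1*. *Tpi1*, *Pgam1*, *Eno1*, *Eno3* and *Ldha* held no peak in any list, which means no call there and not the absence of the mark.

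Read as counts, 6 genes were marked in both stimulated lists, against 12.3% of all protein-coding genes, and 5 in both unstimulated lists, against 7.94%. At the shares of their length these would be 4.03 and 2.48 genes. With 1 list left in a condition the counts are those of that list, 26 without stimulated replicate 1 and 16 without unstimulated replicate 1. The 2 genes with a peak in both stimulated lists and no unstimulated list stood beside 2.73% of all genes, and both lost this call in lists of equal number and when peaks below a −log10 p of 2.5 were dropped. In turn, 0 energy genes showed the reverse, beside 0.688%. Without stimulated replicate 1, 13 genes were marked in the stimulated list left, where 42.3% of all genes were marked, and in no unstimulated list. Without unstimulated replicate 1, or without stimulated replicate 2, the reverse count was 2. The shares of all genes were not counted for these calls with 1 list left out, so they are not read as a result about the energy genes. The 5 genes without any peak stood beside 44.2% of all genes, and 13.4 would be without one at the shares of their length.

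Sharing a gene is not sharing a place on it. The 34 genes held 95 distinct regions of peaks, and 3 of these, or 3.16%, came from more than 1 list, against 2.28% of the 45385 regions over all protein-coding genes. A stretch covered in both stimulated lists lay on 2 energy genes, *Slc16a3* and *Pdk4*, beside 1.04% of all protein-coding genes, and at the shares of their length 0.360 energy genes would hold one. A stretch covered in both unstimulated lists lay on 0 energy genes, beside 0.451% of all genes. The *Slc16a3* and *Pdk4* stretches were free of peaks in both unstimulated lists. The peaks that form them in stimulated replicates 1 and 2 had a −log10 p of 2.29 and 2.12 on *Slc16a3* and of 2.82 and 2.45 on *Pdk4*, so neither stretch is left when peaks below 2.5 are dropped.

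*Slc16a3* encodes MCT4, the monocarboxylate transporter through which glycolytic fibres export lactate. It lies at chr11:120948480-120960868 on the plus strand. Peaks covered 0 and 0 bp of its body in the unstimulated lists and 597 and 1165 bp in the stimulated lists, so both stimulated lists were above both unstimulated ones. The peak of stimulated replicate 1 spanned the annotated start, at chr11:120948175-120949076, with a fold enrichment of 2.098 that ranked 10443 of 10901 in its list. Stimulated replicate 2 had a peak just upstream, at chr11:120947740-120948337, with a fold enrichment of 2.06 and rank 25390 of 40683. It had 2 further peaks in introns, 1.01 to 1.82 kb and 6.00 to 6.35 kb from the start, each within 1000 bp of another annotated transcript start. All of these peaks were thus among the weaker calls of their lists. The 163 bp covered in both lists lie upstream of the start, from -305 to -143, and are printed here because they are the promoter stretch that both stimulated lists share. The strand is that of the gene and the build GRCm38.p6, whose chromosomes are those of mm10.
Slc16a3 promoter stretch, chr11:120948175-120948337: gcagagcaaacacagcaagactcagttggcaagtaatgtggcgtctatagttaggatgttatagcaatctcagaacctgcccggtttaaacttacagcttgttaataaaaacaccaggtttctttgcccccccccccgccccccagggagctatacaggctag
Its GC content was 49.1%, and it held none of the motifs searched, which are listed with the promoters of the set.

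*Pdk4* encodes the pyruvate dehydrogenase kinase that holds pyruvate back from oxidation in fasted or exercised muscle. It lies at chr6:5483351-5496309 on the minus strand. Peaks covered 0 and 497 bp of it in the unstimulated lists and 2106 and 2427 bp, or 16.3% and 18.7% of the gene, in the stimulated lists. Both stimulated lists lay above both unstimulated ones, and in stimulated replicate 1 no other energy gene was covered over so large a share. The share of all genes with this order of covered bases was not counted, so the order is not read as particular to *Pdk4*. In stimulated replicate 1 a single peak of 2106 bp ran from 9.06 to 11.2 kb after the start, with a fold enrichment of 2.36 that ranked 2938 of 10901. Stimulated replicate 2 held 4 peaks on the gene, of which 1 lay within 1000 bp of the start. Its peak from 8.83 to 10.1 kb, with a fold enrichment of 2.20 and rank 8316 of 40683, overlapped the peak of stimulated replicate 1 by 1052 bp. Near the middle of the gene a peak of stimulated replicate 2, from 6.22 to 6.80 kb, overlapped the peak of unstimulated replicate 2, from 6.41 to 6.91 kb. *Pdk4* thus had a stretch shared by the stimulated lists and another shared by the lists numbered 2 in each condition. The central 300 bases of the first are printed on the minus strand, 9438 to 9737 bp from the start. They hold 114 bases of coding exon with intron on either side, and the capitals mark a CArG box, the binding motif of SRF.
Pdk4 shared stretch, chr6:5486572-5486871: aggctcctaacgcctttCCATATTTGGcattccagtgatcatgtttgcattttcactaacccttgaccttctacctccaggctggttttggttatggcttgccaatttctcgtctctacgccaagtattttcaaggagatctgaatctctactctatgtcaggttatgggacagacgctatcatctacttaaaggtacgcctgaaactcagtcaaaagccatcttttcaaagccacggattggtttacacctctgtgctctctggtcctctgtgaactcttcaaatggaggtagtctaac
A CArG box was present in the central 300 bases of 1.67% of the peaks of stimulated replicate 1 and 1.68% of those of stimulated replicate 2 that were at least 300 bases wide. The match is a string of letters, and no binding of SRF was measured here.

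**Figure D3:**
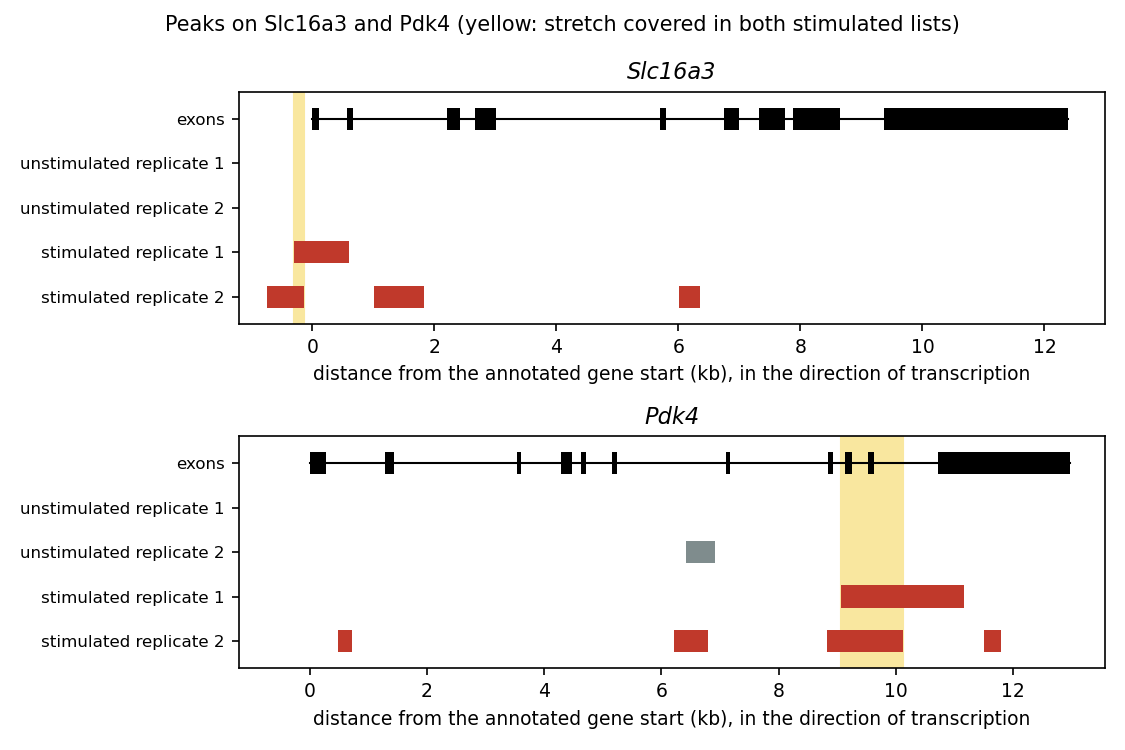
Peaks on *Slc16a3* (top) and *Pdk4* (bottom) in the 4 lists, against distance from the annotated start in kb, in the direction of transcription. Black boxes are exons, grey and red bars are peaks of unstimulated and stimulated lists, and yellow marks the stretch covered in both stimulated lists. The shared stretch lies upstream of the start of *Slc16a3* and around 2 late exons of *Pdk4*, with no grey bar in either.

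Of the other genes of lactate and pyruvate handling, *Slc16a1* was marked in the lists numbered 2, *Ldhb* in 1 list and *Ldha* in none. *Slc16a1* encodes MCT1, the transporter by which oxidative fibres take up lactate, and lies at chr3:104638668-104658462 on the plus strand. Peaks covered 0 and 439 bp of it in the unstimulated lists and 0 and 972 bp in the stimulated lists. The unstimulated peak lay in an intron, while 1 of the 2 stimulated peaks spanned the annotated start, with a fold enrichment of 2.21 and rank 7943 of 40683, and the other lay in the last exon. The 74 bases of the start peak that lie upstream of the gene are printed to set them beside the *Slc16a3* stretch.
Slc16a1 upstream stretch, chr3:104638594-104638667: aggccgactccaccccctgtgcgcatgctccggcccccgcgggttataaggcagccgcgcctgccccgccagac
They held 74.3% G and C, against 49.1% in the *Slc16a3* stretch, and likewise none of the motifs. Of the lactate dehydrogenase subunits, *Ldhb*, the heart form, held 1 intron peak of 970 bp in unstimulated replicate 2, and *Ldha*, the form of fast muscle, held 0 peaks in all 4 lists. The *Ldhb* peak lay within 1000 bp of the start of another annotated transcript of that gene. Together the 5 genes of this group were marked 0 and 3 times in the unstimulated lists and 2 and 3 times in the stimulated lists, against 0.234, 1.00, 0.411 and 1.75 at the shares of like length. Peaks covered 0% and 2.48% of their bodies in unstimulated and 3.51% and 5.93% in stimulated muscles, against 0.202%, 0.739%, 0.257% and 1.29% of all protein-coding gene bodies. On this measure the conditions did not overlap, but *Pdk4* alone gave 2106 of the 2703 bp covered in stimulated replicate 1 and 2427 of the 4564 bp in stimulated replicate 2. In the other 4 groups the covered share overlapped between the conditions. It was 0%, 0.843%, 0% and 3.43% for the glycolytic enzymes and 0.387%, 1.64%, 0.349% and 3.68% for the regulators and branches. For the glycogen genes it was 0.623%, 0.762%, 0.184% and 1.80%, and for the phosphocreatine and adenine nucleotide genes 0%, 3.23%, 1.41% and 2.77%.

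Of the 12 glycolytic enzymes, 0 and 5 were marked in the unstimulated lists and 0 and 7 in the stimulated lists, against 0.950, 2.98, 1.38 and 4.23 at the shares of like length. The replicates numbered 1 thus held no peak on any enzyme of the main pathway in either condition. *Hk2*, the hexokinase of insulin-sensitive muscle, lies at chr6:82725025-82774454 on the minus strand. Peaks covered 0 and 787 bp of *Hk2* in the unstimulated lists and 0 and 3896 bp in the stimulated lists. In stimulated replicate 2 it held 4 peaks, of which 1 spanned the start, from 82773579 to 82774869. This promoter peak had a fold enrichment of 2.42 and a −log10 p of 3.03, rank 1180 of 40683 by p, and was the strongest promoter peak of the set. The other 3 lay in introns and in the last exon. The 250 bases upstream of the start, all within that peak, are shown on the minus strand with 2 motifs in capitals.
Hk2 upstream, chr6:82774455-82774704: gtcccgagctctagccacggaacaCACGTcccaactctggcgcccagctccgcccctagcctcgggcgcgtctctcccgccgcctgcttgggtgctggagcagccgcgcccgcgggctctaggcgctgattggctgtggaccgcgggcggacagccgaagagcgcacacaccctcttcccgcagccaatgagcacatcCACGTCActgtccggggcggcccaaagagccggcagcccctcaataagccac
The capitals mark the core of the hypoxia response element (ACGTG, here as its reverse complement CACGT), at positions 25 and 199, and the core of the cAMP response element (TGACG, here as CGTCA), at position 201, which overlaps the second. The 250 bases upstream of 16.6% of all RefSeq gene starts held the first motif and 17.8% held the second. The GC content of the *Hk2* stretch was 69.6%.

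*Aldoa* and *Gapdh* were also marked at the promoter in stimulated replicate 2. Peaks covered 0 and 280 bp of *Aldoa*, the muscle aldolase, in the unstimulated lists and 0 and 1068 bp, or 19.4% of its 5.52 kb, in the stimulated lists. Its promoter peak, chr7:126799684-126801536, with a fold enrichment of 2.15 and rank 12244 of 40683, also overlapped *Fam57b* and a second gene record named *Aldoa*, so it cannot be given to 1 gene. *Gapdh* held a single peak of 660 bp, 0.471 to 1.13 kb from its start, with a fold enrichment of 2.05. *Pgam2*, the muscle phosphoglycerate mutase, held 1 intron peak of 350 bp in stimulated replicate 2, which was 16.7% of a gene of 2.09 kb. *Pkm*, the muscle pyruvate kinase, held 3 peaks there, covering 1848 bp, or 8.03%. These last 3 genes had no peak in the other lists.

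*Pfkm*, the muscle phosphofructokinase and the main control point of glycolysis, went the other way. It held 1 peak of 642 bp over exons in unstimulated replicate 2, with a fold enrichment of 2.23, rank 5329 of 32740, and 0 peaks in the other lists. *Gpi1*, glucose phosphate isomerase, was covered over 0 and 239 bp in the unstimulated lists and 0 and 1959 bp in the stimulated lists. *Hk1*, the hexokinase of most tissues, held 1 peak in each list numbered 2, at separate places. *Eno3*, the muscle enolase, was unmarked on the GENCODE gene body, as were *Eno1*, *Tpi1* and *Pgam1*. The start of *Eno3* in RefSeq lies 4077 bp from that of GENCODE, and on the RefSeq gene body it held a peak in stimulated replicate 2.

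Of the 6 genes that regulate or branch off glycolysis, 2 and 2 were marked in the unstimulated lists and 1 and 6 in the stimulated lists, against 0.686, 2.33, 1.03 and 3.14 at the shares of like length. The counts of unstimulated replicate 2 and stimulated replicate 1 were thus at the background. *Pfkfb2* and *Pfkfb3* encode bifunctional enzymes that make and break the main activator of phosphofructokinase. *Pfkfb3* was covered over 235 and 2045 bp in the unstimulated lists and 773 and 3220 bp in the stimulated lists, so the conditions overlapped, and the lists numbered 2 were higher in each. It held 7 body peaks in stimulated replicate 2 and a promoter peak of 280 bp upstream of its start, with a fold enrichment of 2.01, and no stretch was covered in more than 1 list. *Pfkfb2* was covered over 623 and 1593 bp in the unstimulated lists and 0 and 1140 bp in the stimulated lists. The peaks of unstimulated and stimulated replicate 2 overlapped in an exon that ends some of its coding transcripts, within chr1:130696970-130698349, so this place was marked in both conditions. Part of this gene is overlapped by *Gm29427*, and 4 of its 6 peaks lie on both.

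*Pfkfb4*, a further bifunctional enzyme of that kind, and *Bpgm*, the bisphosphoglycerate mutase, were marked in stimulated replicate 2 alone, over 2289 and 1025 bp. *Fbp2*, the muscle fructose bisphosphatase, and *Gpd1*, the cytosolic glycerol phosphate dehydrogenase, were marked there over 254 and 226 bp. These genes rested on a single list, in which 42.3% of all genes were marked.

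Of the 7 glycogen genes, 3 and 5 held a peak in the unstimulated lists and 2 and 7 in the stimulated lists, against 1.78, 3.60, 2.22 and 4.47 at the shares of like length. *Gbe1*, the glycogen branching enzyme, is 255.8 kb long and was covered over 2704 and 1027 bp in the unstimulated lists and 667 and 2626 bp in the stimulated lists. The conditions overlapped, and unstimulated replicate 1 was the highest. No stretch of *Gbe1* was covered in 2 lists. Its intron peak in stimulated replicate 2, at chr16:70521106-70521516, had a fold enrichment of 2.74 and a −log10 p of 3.84, rank 140 of 40683 by p, and was the strongest peak on any energy gene in that list. In unstimulated replicate 1 it held a pair of peaks with −log10 p of 3.19 and 3.29.

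*Ugp2*, which makes the UDP-glucose from which glycogen is built, was covered over 325, 687, 492 and 1080 bp in unstimulated replicates 1 and 2 and stimulated replicates 1 and 2. Its 5 peaks all lay in introns, at different places in each list, with fold enrichments from 2.02 to 2.24. *Phkb*, the beta subunit of phosphorylase kinase, is 220.4 kb long and was covered over 901 and 1944 bp in the unstimulated lists and 0 and 2774 bp in the stimulated lists. It held 2, 3, 0 and 4 peaks, all away from the start, with fold enrichments from 2.02 to 2.28, and no base was covered in more than 1 list. *Pygm*, the muscle glycogen phosphorylase, differed from these long genes. It is 14.1 kb long and held 0 peaks in 3 lists and 3 peaks in stimulated replicate 2, which covered 2451 bp or 17.4% of the gene. The middle peak of the 3, over exons 4.98 to 5.50 kb from the start, had a fold enrichment of 2.39 and ranked 1817 of 40683.

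*Gys1*, the muscle glycogen synthase, was covered over 0 and 886 bp in the unstimulated lists and 0 and 1420 bp in the stimulated lists, in its last exon in unstimulated and around earlier exons in stimulated muscle. *Phkg1*, the catalytic subunit of phosphorylase kinase in muscle, was covered over 259 and 493 bp in the lists numbered 2. The RefSeq start of *Phkg1* lies 19415 bp from that of GENCODE, and on the shorter RefSeq body the stimulated peak falls outside the gene. *Gyg*, glycogenin, the primer of glycogen synthesis, held 2 intron peaks in stimulated replicate 2. Their fold enrichments were 2.11 and 2.01, ranks 17375 and 40141 of 40683.

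Of the 4 genes of the phosphocreatine and adenine nucleotide systems, 0 and 1 were marked in the unstimulated lists and 2 and 3 in the stimulated lists, against 0.259, 1.03, 0.435 and 1.64 at the shares of like length. *Ak1*, the muscle adenylate kinase, was covered over 0 and 0 bp in the unstimulated lists and 857 and 552 bp in the stimulated lists. Both stimulated lists were above both unstimulated ones, but the 2 peaks lay in introns 2.40 to 3.26 kb and 8.75 to 9.30 kb from the start and shared no base. Their fold enrichments were 2.20 and 2.101, ranks 9079 of 10901 and 18514 of 40683. *Ckm*, the cytosolic muscle creatine kinase, showed another order. It was covered over 0 and 2604 bp in the unstimulated lists and 277 and 0 bp in the stimulated lists, so its highest value, 14.4% of the gene, was in an unstimulated list. The strongest of its 3 peaks there lay in an exon, 16.7 to 17.0 kb from the start, with a fold enrichment of 2.39, rank 1302 of 32740. The RefSeq start of *Ckm* lies 6318 bp from that of GENCODE, so its share and distances depend on the gene model. On the RefSeq body *Ckm* was marked in the same lists. *Ckmt2*, the mitochondrial creatine kinase of muscle, held 1 peak in stimulated replicate 2, at chr13:91875861-91877104, which spanned its start with a fold enrichment of 2.06, rank 24214 of 40683. *Ampd1*, the muscle AMP deaminase, held 1 over its last exon in the same list.

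The place of the peaks within the genes was compared over the 98 peaks on the 34 gene bodies, 10 and 24 in the unstimulated and 7 and 57 in the stimulated lists. Peaks at the promoter numbered 0, 0, 1 and 6, and 2 more lay wholly upstream, on *Slc16a3* and *Pfkfb3* in stimulated replicate 2. Away from the promoter, 3, 12, 2 and 17 peaks overlapped an exon and 7, 12, 4 and 34 lay within introns. An exon was touched by 3 of 10 and 12 of 24 peaks in the unstimulated lists and by 3 of 7 and 22 of 57 in the stimulated lists. Over all protein-coding genes the shares were 16.5%, 20.2%, 20.6% and 24.5%, lower than for the energy genes in each list. These shares were not matched on gene length, so the difference is not read as a trait of the energy genes. With the gene cut into 3 equal parts, the first held 2 and 3 peaks in the unstimulated lists and 3 and 20 in the stimulated lists, while the last held 5, 11, 2 and 20. Over all protein-coding genes the first part held 32.2%, 31.7%, 32.6% and 35.2% of the peaks and the last 33.1%, 35.4%, 33.998% and 33.4%. In stimulated replicate 2, with 20 of 57 peaks in each, the energy genes were at the background.

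**Figure D4:**
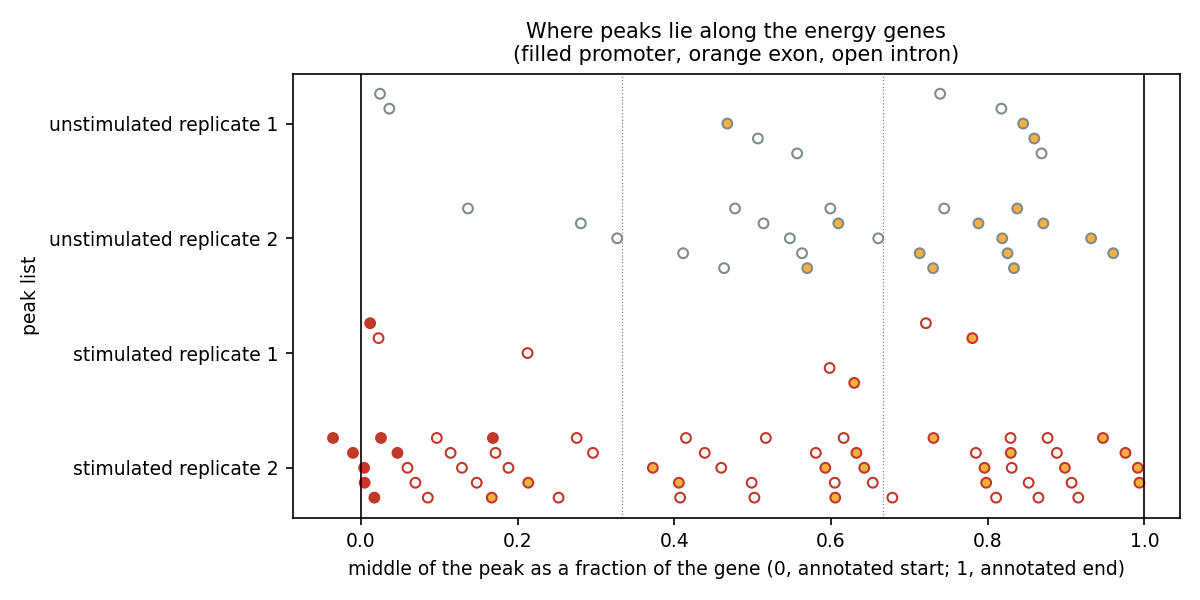
Middle of each peak on the energy genes as a fraction of the gene from annotated start (0) to end (1), by list. Filled points are promoter peaks, orange points overlap an exon, open points lie within introns, grey and red outlines are unstimulated and stimulated lists, and the vertical scatter within a list has no meaning. Of the peaks in the unstimulated lists, 5 of 34 lie in the first of 3 equal parts of the gene, cut by the dotted lines, and none at the promoter.

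Fold enrichments of the peaks on energy genes ran from 1.99 to 2.74, and their medians in the 4 lists were 2.24, 2.11, 2.20 and 2.13, against 2.25, 2.09, 2.27 and 2.09 for whole lists. Of the 98 peaks, 4 reached a −log10 p of 3, namely 2 on *Gbe1* in unstimulated replicate 1 and those on the *Hk2* promoter and on *Gbe1* in stimulated replicate 2. These were 2 of 10, 0 of 24, 0 of 7 and 2 of 57 peaks, beside 12.9%, 2.93%, 17.7% and 3.22% of the whole lists. The 2 of stimulated replicate 2 were the only ones of the 98 with a q-value below 1. In each whole list the q-value was 1 for 88.7% to 99.03% of the peaks.

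RefSeq promoters, 250 bases before to 50 after the start on GRCm38.p6, were matched for 32 of the 34 genes. *Ampd1* and *Gpd1* had no entry. The hypoxia response core was present in 12 promoters, or 37.5%, against 19.6% of all 32851 promoters. The MyoD E-box (CAGCTG), the site of myogenic factors, was present in 11, or 34.4%, against 16.3%, and the E-box CACGTG in 5, or 15.6%, against 7.15%. The cAMP response core was present in 9, or 28.1%, against 20.8%. The full cAMP response element (TGACG then TCA) and the CArG box were each present in 1, the promoter of *Ldha*, and the MEF2 box in 1, that of *Pgam2*, against 1.79%, 1.63% and 1.86%. The CArG and MEF2 boxes are given by name because their motifs allow more than 1 base at some positions. Both strands were searched, and CACGTG contains the hypoxia core. Of the 8 genes with a marked promoter, *Hk2*, *Gapdh*, *Pfkfb3*, *Slc16a1* and *Slc16a3* held the hypoxia core in this window, *Hk2*, *Pfkfb3* and *Slc16a3* the cAMP response core, *Slc16a1* the E-box and *Ckmt2* the MyoD E-box. The peaks of *Gapdh* and *Pfkfb3* do not reach into the window searched. The motifs in *Slc16a3* lie outside the stretch printed above.

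A further 54 genes of the same pathways, such as other isoforms, glucose transporters and pyruvate dehydrogenase, were counted in the same way. They were marked 8 and 15 times in the unstimulated lists and 6 and 30 times in the stimulated lists, against 6.44, 19.0, 8.96 and 26.1 at the shares of like length. Their ratio to genes of like length was 1.02 ± 0.320 (SD, n = 2) in unstimulated and 0.909 ± 0.339 (SD, n = 2) in stimulated muscles, with an exact permutation p of 0.667. The energy genes lay above these relatives on this ratio in each list, by little in unstimulated replicate 1, at 1.28 against 1.24, and the difference was not tested. The sets are unlike in that 6 of the relatives and no energy gene lie on chromosome X, where 3 of the lists held few peaks. At the promoter 0 and 0 were marked in the unstimulated lists, and *Pgk1* in stimulated replicate 1 and 7 genes, among them the insulin-responsive glucose transporter *Slc2a4*, in stimulated replicate 2. At the shares of like length 0.782 and 5.21 of them would be marked there, so these counts were near the background.

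Among the genes marked in both stimulated lists were *Slc16a7*, *Gpd2*, *Epm2a* and *Gsk3b*, each of which also held a peak in unstimulated replicate 2. *Epm2a*, the glycogen phosphatase laforin, and *Gsk3b*, a kinase that inhibits glycogen synthase, were marked in all 4 lists. *Slc2a3*, a glucose transporter, was marked in all but stimulated replicate 1. It was covered over 239 and 540 bp in the unstimulated lists and 0 and 1288 bp in the stimulated lists. *Epm2a*, *Gsk3b* and *Slc2a3* are 73.8 to 157.1 kb long. No stretch covered in both stimulated lists lay on any of the 54, while *Gsk3b* held one covered in both unstimulated lists.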

How the data were processed

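The H3S10ph ChIP-seq peak lists of 4 gastrocnemius samples were used, 2 stimulated and 2 unstimulated. Per the labels and the study's methods, the authors aligned reads to mm10 (submitters' processing notes: BWA 7.12, MACS2 2.1.1 and SAMtools 2.4.0), removed multi-mapping reads, equalised the read numbers of replicates by down-sampling and called broad peaks against input DNA, per sample. For each peak the authors deposited a fold enrichment (a ratio) and −log10 values of p and q. The stated p cutoff was stricter than the lists, which reach a −log10 p of 2.00 to 2.04, and all deposited peaks were used.

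Without counts, lists were compared by overlap (at least 1 bp) with GENCODE M21 gene bodies on the same build, in Python 3.11.15 (numpy 2.4.6, pandas 2.3.3, matplotlib 3.10.9). Fold and −log10 p were read within a list only. Condition means were compared by an exact two-sided permutation test over lists. The overlap code was tested on simulated data. Alternatives were stricter −log10 p, equal numbers of peaks, 100 bp overlap, merging within 1000 bp, gene bodies extended by 5000 bp, promoters of 5000 bp or of any transcript, a replicate block, each list left out and, added after the data were seen, RefSeq gene models. The genes, lists and rules were chosen with earlier results of these data known. Every energy gene is named, with fuller values for those marked in both lists of a condition, in 3 or 4 lists or at the promoter, and for muscle isoforms. A result on a further pathway gene is not reported here.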

Additional observations from a re-analysis of the deposited data

How the results depend on the processing

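The ratio of stimulated to unstimulated means kept its direction in 11 of 12 alternatives, both for genes with a peak (0.667 to 3.30) and for covered bases (0.571 to 4.40). It reversed without stimulated replicate 2, to 0.667 for genes and 0.571 for bases. The promoter difference kept its direction in all 13 alternatives, from 0.5 genes at a −log10 p of at least 2.5 or 3 to 9.5 with promoters of 5000 bp. The conditions no longer stood apart at those thresholds (0, 0, 0 and 1 genes), with equal numbers of peaks (0, 0, 0 and 2) or with promoters of 5000 bp (1, 3, 3 and 20). The count of 2 genes marked in both stimulated and no unstimulated list (*Ak1* and *Slc16a3*) became 1 at a −log10 p of at least 2.5 (*Ugp2*), 0 at 3, 1 with equal numbers of peaks (*Pdk4*) and 1 with gene bodies extended by 5000 bp (*Ak1*), so *Slc16a3* lost the call in all 4 settings and *Ak1* in 3, and it ranged from 2 to 13 when 1 list was left out. The reverse count of 0 ranged from 0 to 2. With the replicate block, that is, within replicate numbers, the ratios were 1.51 for genes and 1.69 for bases and the promoter difference was 4.5 genes, each with an exact permutation p of 0.5, the smallest that 2 pairs allow. Within each number the stimulated list was the higher, with 7 genes against 5 and 26 against 16. The paper took the contralateral muscles from the same mice. The labels give the numbers but do not say that equal numbers mark the same mice, and 2 pairs are too few to check it. Merging peaks within 1000 bp or asking for 100 bp of overlap left these 5 results as they were. RefSeq gene models gave 1.57, 2.15 and 5.0. The depth of the lists is unknown, so a gene without a peak may carry the mark below the threshold of its list.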
